A study of Mus musculus with 13 samples.

Results

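The genes described here are 10 mouse enzymes of pyrimidine nucleotide supply and fluorouracil action: Tyms, Dut, Rrm1, Rrm2, Tk1, Umps, Cad, Dhodh, Dctd and Nme1. They were listed by name for their roles, with earlier results of these data known. All 10 were present among the 13201 gene identifiers of the deposited table. Each library was made with Smart-seq2, a protocol that copies the polyadenylated RNA of a few cells and does not mark the strand, from 100 haematopoietic stem cells (HSCs) sorted out of mouse bone marrow. The 13 libraries form 4 groups. Untreated wild-type (WT) mice gave libraries D1, D2 and D3, and untreated mice deficient for the kinase MEK1 (KO) gave D4, D5 and D6. WT mice given 5-fluorouracil (5-FU) gave A2, A3, A4 and D4, and KO mice given 5-FU gave A5, A6 and A8. The labels state neither strain, age, 5-FU dose nor the interval after the drug, and they do not say how MEK1 was removed or in which cells.

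Pyrimidine nucleotides are built from small precursors in the de novo pathway or recovered from nucleosides by salvage kinases, and dividing cells need them in their deoxy form for DNA synthesis. Thymidylate is the one DNA precursor made by methylating a uracil nucleotide, and that step is the target of 5-FU. The drug is converted into fluorinated nucleotides that inhibit thymidylate synthase and that enter RNA and DNA, so it kills cycling blood progenitors while HSCs, which rarely divide at rest, are recruited into division afterwards.

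Levels are given as normalized counts, that is the reads of a gene divided by the size factor of its library, with the values of a group always in the order of libraries named above. Folds are ratios of mean normalized counts, whereas log2 differences and their standard errors (SE) are on the variance-stabilized scale of the deposited values, so one cannot be turned into the other. Read totals ran from 11416753 to 25380570 in 12 libraries and reached 45384866 in untreated WT D1, and 3 reads correspond to a normalized count of 0.979 to 4.35. The fewest reads behind a value of the 10 genes were 146, for Dhodh in untreated WT D1. Map2k1, the gene of MEK1, read 905, 1116 and 1766 in untreated WT and 611, 749.8 and 545 in untreated KO, and 604, 1634, 584 and 1573.5 against 328, 459.9 and 304 after 5-FU, so no KO library reached the level of a WT library of the same treatment. The difference was called after 5-FU (limma adjusted p = 0.0339, lost under 10 of 26 other settings) and not in untreated cells (0.46). The labels do not say which part of the gene is deleted, so the remaining reads check only the direction. The libraries 5-FU WT A3 and D4 were closer to each other (Pearson r across genes 0.988) than any other pair of that group (0.934 to 0.943). Nothing in the labels ties each library to its own animal, so p-values speak of the variation among the libraries at hand, part of which may be technical.

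After 5-FU, 8 of the 10 genes were higher in KO than in WT HSCs and none was lower. With all libraries, differences of normalized means ranged from 1.84-fold for Tyms to 3.26-fold for Rrm2, and they took in the synthesis of thymidylate (Tyms, Dut), ribonucleotide reduction (Rrm1, Rrm2), thymidine salvage (Tk1), the first and last enzymes of de novo synthesis (Cad, Umps) and the last phosphorylation step (Nme1). Dhodh and Dctd did not pass the test. A gene was called when its adjusted p was under 0.05 in limma, with Benjamini-Hochberg adjustment over all 12846 genes tested. By that rule 5.36% of all genes were called higher in this comparison and 5.5% lower. The median log2 difference was 0.98 over the 10 genes and -0.02 over all genes tested. In 7 of the 10 genes each KO library lay above each WT library, an arrangement found in 13.2% of all genes. Library pools of 100 cells cannot tell more RNA per cell from more cells that contain the RNA. The number of members called fell to 5 without 5-FU KO A6 or without A8, and it was 7 among the libraries acquired in 2016, that is without 5-FU WT D4.

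**Figure D1:**
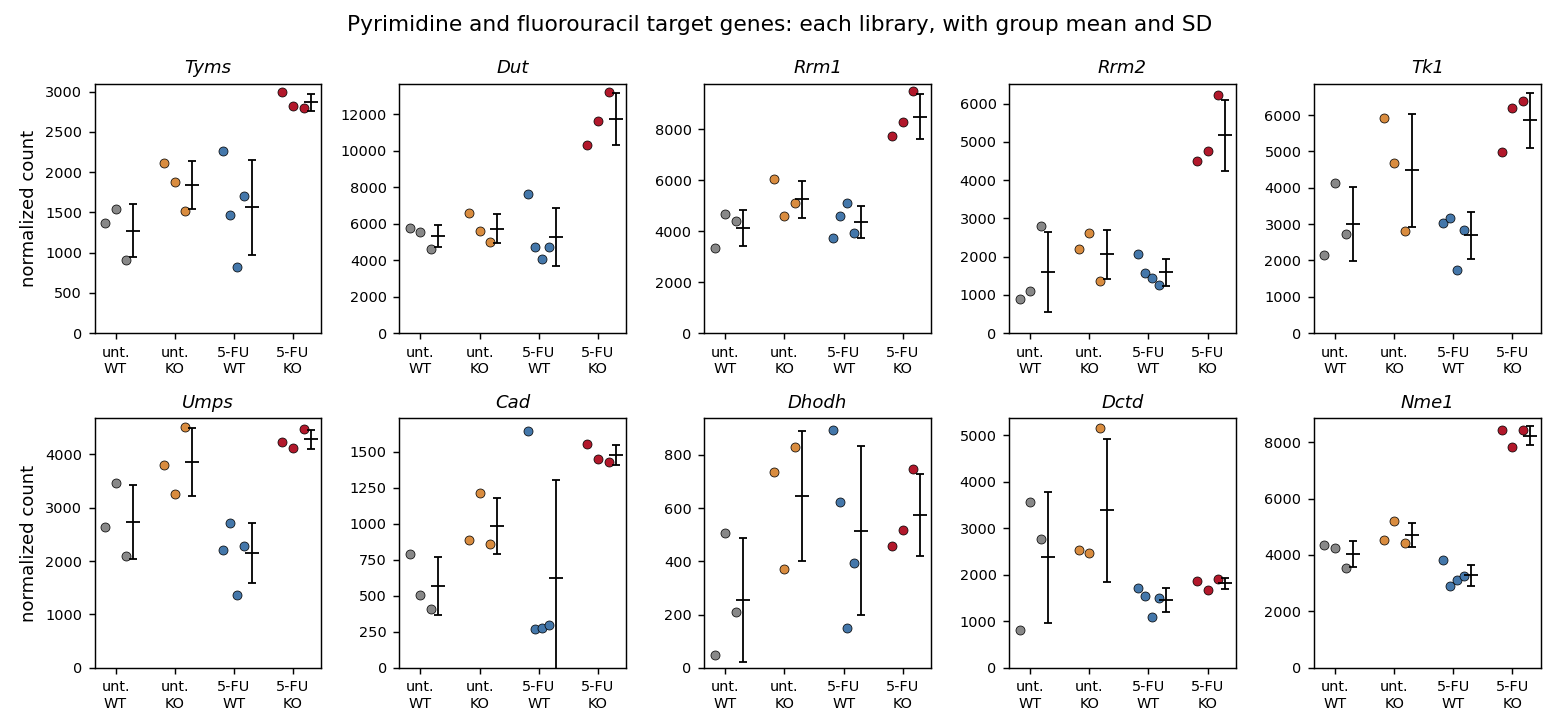
Normalized count (vertical axis, linear, from 0) of the 10 genes in each of the 13 libraries, with one panel per gene and one colour per group (unt., untreated); the bars beside the points show the group mean and SD over 3 libraries, or 4 in 5-FU WT. The 3 libraries of 5-FU KO lie above the other 10 libraries for Tyms, Dut, Rrm1, Rrm2 and Nme1, and 1 library of 5-FU WT (A2, 1647) lies above the 5-FU KO libraries for Cad.

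The promoters of 4 of these genes are printed because they hold a short motif that was searched for in all of them. The windows come from RefSeq on GRCm38.p6 and run from 250 bases before to 50 bases after an annotated start site; 9 of the 10 members had one, Dhodh being the exception. Capitals mark the E-box CACGTG in Tyms and Nme1, the word bound by Myc and its relatives, and the CCAAT box in Rrm1 and Rrm2, the word bound by NF-Y. Each window is written 5′ to 3′ on the strand of its gene.
Tyms, chr5:30073576-30073875, minus strand: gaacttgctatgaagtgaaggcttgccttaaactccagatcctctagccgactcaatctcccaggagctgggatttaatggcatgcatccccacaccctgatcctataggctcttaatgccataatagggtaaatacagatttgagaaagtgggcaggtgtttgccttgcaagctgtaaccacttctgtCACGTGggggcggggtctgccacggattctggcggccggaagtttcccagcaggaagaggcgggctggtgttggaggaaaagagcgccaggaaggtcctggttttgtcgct
Nme1, chr11:93968223-93968522, minus strand: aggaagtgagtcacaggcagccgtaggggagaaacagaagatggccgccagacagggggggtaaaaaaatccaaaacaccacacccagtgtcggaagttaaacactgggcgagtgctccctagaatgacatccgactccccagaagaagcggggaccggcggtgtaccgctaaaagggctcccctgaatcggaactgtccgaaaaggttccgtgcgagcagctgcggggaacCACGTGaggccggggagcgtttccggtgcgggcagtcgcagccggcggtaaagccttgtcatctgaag
Rrm1, chr7:102441445-102441744, plus strand: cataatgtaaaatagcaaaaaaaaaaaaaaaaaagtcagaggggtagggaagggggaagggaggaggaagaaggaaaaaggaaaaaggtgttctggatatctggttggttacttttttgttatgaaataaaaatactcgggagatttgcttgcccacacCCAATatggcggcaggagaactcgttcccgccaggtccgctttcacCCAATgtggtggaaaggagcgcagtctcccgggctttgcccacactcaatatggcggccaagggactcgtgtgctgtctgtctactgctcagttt
Rrm2, chr12:24708004-24708303, plus strand: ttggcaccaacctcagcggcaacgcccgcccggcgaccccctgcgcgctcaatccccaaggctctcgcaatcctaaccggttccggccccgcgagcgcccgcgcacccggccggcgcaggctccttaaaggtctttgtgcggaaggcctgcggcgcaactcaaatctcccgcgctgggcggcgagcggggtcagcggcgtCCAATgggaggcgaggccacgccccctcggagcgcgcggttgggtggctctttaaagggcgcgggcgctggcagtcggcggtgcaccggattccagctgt
The E-box began 61 bases before the start site in Tyms and 18 before it in Nme1, and 8.09% of genes with a window held one. A second window of Nme1 also held it. The CCAAT box, searched on both strands, began 91 and 45 bases before the start of Rrm1 and 50 before that of Rrm2. It was also found in windows of Dctd, and 41.1% of genes held it. The E2F words TTTGGCGC, TTTGCCGC, TTTCGCGC and TTTCCCGC were in none of the 9 members with a window, against 2.6% of genes. At so low a share, none among 9 genes cannot set the members apart. Only these exact words were searched, so other forms of an E2F site would be missed. These matches describe the letters of the windows only.

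Tyms codes for thymidylate synthase, the enzyme that the fluorinated nucleotide blocks (ENSMUSG00000025747, chromosome 5, 30058202 to 30073617, GRCm38, minus strand). Its normalized counts were 1364, 1546 and 904 in untreated WT and 2110.5, 1879 and 1517 in untreated KO. After 5-FU, WT gave 2259, 1465, 824 and 1698 and KO gave 2989.7, 2815 and 2797. The 3 KO libraries after 5-FU were the highest of all 13 and lay close together, whereas A2 and A4 of 5-FU WT differed by 2.74-fold. Group means after 5-FU were 1561 ± 594 (SD, n = 4) in WT and 2867 ± 107 (SD, n = 3) in KO, a 1.84-fold difference (log2 0.80 (SE 0.22), limma adjusted p = 0.03). This call did not hold in all settings. It missed the threshold when the near-alike A3 and D4 were averaged (adjusted p = 0.0558) and without A3 (0.067), A4 (0.0679), A5 (0.104), A6 (0.09) or A8 (0.0838), with log2 differences of 0.59 to 0.83. A processed pseudogene, Tyms-ps, is annotated elsewhere in the genome and was not analysed here.

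Dut codes for the dUTPase that destroys dUTP, and fluorinated dUTP with it, and yields the dUMP on which thymidylate synthase works (ENSMUSG00000027203, chromosome 2, 125247190 to 125258608, plus strand). Normalized counts were 5759.7, 5541 and 4617 in untreated WT, 6557, 5603 and 4981 in untreated KO and 7622, 4736, 4038 and 4702.5 in WT after 5-FU. In KO after 5-FU they were 10334, 11644 and 13201, so that the lowest of these exceeded the highest of the other 10 libraries, 5-FU WT A2. The KO mean after 5-FU was 11726 ± 1435 (SD, n = 3) against 5275 ± 1598 (SD, n = 4) in WT. That 2.22-fold difference (log2 1.13 (SE 0.18)) had a limma adjusted p of 0.000586.

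Dctd codes for dCMP deaminase, which supplies dUMP to the same step (ENSMUSG00000031562, chromosome 8, 48099092 to 48153233, plus strand). Its untreated libraries were spread widely, at 811, 3557 and 2763 in WT and 2526, 2476 and 5146 in KO. After 5-FU, WT libraries stood at 1706, 1536, 1093 and 1508 and KO libraries at 1862, 1680.3 and 1903, a narrow band in which the groups overlapped through A2. Means were 1460.4 ± 260.3 (SD, n = 4) for WT and 1815 ± 119 (SD, n = 3) for KO. The log2 difference of KO against WT after 5-FU was 0.27 with a 95% interval of -0.41 to 0.94 (limma adjusted p = 0.662).

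Rrm1 and Rrm2 code for the large catalytic and the small radical-bearing subunit of ribonucleotide reductase, which makes all deoxynucleotides; Rrm2 is the subunit made mainly in S phase. Rrm1 (ENSMUSG00000030978, chromosome 7, 102441695 to 102469771, plus strand) read 3328, 4657 and 4412 in untreated WT and 6025, 4609 and 5092 in untreated KO. After 5-FU it read 3736.5, 4605, 5107 and 3933 in WT and 7717, 8274 and 9474 in KO. Libraries of 5-FU KO stood clear of all others, and 5-FU WT A2, the highest of its group for most members, was here the lowest. Means after 5-FU were 4345.5 ± 629 (SD, n = 4) in WT and 8488 ± 898 (SD, n = 3) in KO, a 1.95-fold difference (log2 0.91 (SE 0.15), limma adjusted p = 0.000881).

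Rrm2 (ENSMUSG00000020649, chromosome 12, 24708241 to 24714146, plus strand) read 885, 1095 and 2806.5 in untreated WT and 2191.5, 2622 and 1353 in untreated KO. After 5-FU it read 2075, 1579, 1432 and 1258 in WT and 4504, 4766 and 6235 in KO. Untreated WT D3 was 3.17 times as high as D1, yet every other library outside 5-FU KO stayed below D3, and the 3 libraries of 5-FU KO were above it. The 3.26-fold difference of KO over WT after 5-FU (log2 1.50 (SE 0.27), limma adjusted p = 0.00172) was the largest fold among the 10 genes with all libraries, with means of 5168 ± 933 (SD, n = 3) and 1586 ± 351 (SD, n = 4). Without 5-FU WT A2 it was 3.63-fold, and Cad had a larger one, 5.29-fold. Rrm2b, the small subunit that p53 can induce, gave a log2 difference of -0.16 (interval -0.70 to 0.38, limma adjusted p = 0.766).

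Tk1, the cytosolic thymidine kinase of the salvage route (ENSMUSG00000025574, chromosome 11, 117815526 to 117826092, minus strand), read 2138, 4134.5 and 2727 in untreated WT and 5926, 4680.0 and 2820.0 in untreated KO. After 5-FU it read 3042, 3162, 1731 and 2824 in WT and 4973, 6188 and 6397 in KO. All 3 KO libraries (mean 5853 ± 769, SD, n = 3) exceeded all 4 WT libraries (mean 2689.9 ± 655, SD, n = 4) after 5-FU, but untreated KO D4, at 5926, was within the range of 5-FU KO. The difference after 5-FU was 2.18-fold (log2 1.04 (SE 0.24), limma adjusted p = 0.0102), and it missed the threshold without A6 (0.0518) or A8 (0.0514). Tk1 shares 83 exon bases with Afmid on the opposite strand, and Afmid had normalized counts of 0 to 196 across the libraries.

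Cad, Dhodh and Umps carry de novo synthesis from glutamine to UMP. Cad codes for the enzyme of the first 3 steps, which mitogen signalling through ERK is known to activate by phosphorylation (ENSMUSG00000013629, chromosome 5, 31054780 to 31078479, plus strand). Normalized counts were 790.4, 507 and 408 in untreated WT and 885, 1211 and 862 in untreated KO, and 5-FU gave 1647, 269, 274 and 296 for WT against 1553, 1450.3 and 1429.6 for KO. The WT group after 5-FU held 3 libraries near 280 (mean 279.6 ± 14.0, SD, n = 3) and 1, A2, that was higher than any KO library. The log2 difference was 1.16 (SE 0.33) with all libraries (limma adjusted p = 0.0336), with a 2.38-fold difference of means (621 ± 684, SD, n = 4, against 1478 ± 66.2, SD, n = 3), and 1.59 (0.000118), or 5.29-fold, without A2. Without any one of A3, A4, D4, A5, A6 and A8 the adjusted p was 0.0854 to 0.109, with a log2 difference of 1.01 to 1.18. Averaging A3 and D4 gave 1.02 (adjusted p = 0.099), acquisition as a term 1.03 (0.101), and a fit of the 5-FU groups alone 1.16 (0.0642).

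Dhodh codes for the mitochondrial enzyme that oxidises dihydroorotate (ENSMUSG00000031730, chromosome 8, 109591343 to 109608673, minus strand). It was the least read member, with normalized counts of 47.7, 505 and 211 in untreated WT and 736, 369.6 and 829 in untreated KO. After 5-FU it read 893, 622, 150.3 and 394 in WT and 457, 516 and 747 in KO. Ranges overlapped in every comparison, and the libraries of untreated WT differed by 10.6-fold. Means after 5-FU were 515 ± 317 (SD, n = 4) for WT and 573 ± 153 (SD, n = 3) for KO. The log2 difference after 5-FU was 0.19 with an interval of -0.54 to 0.91 (limma adjusted p = 0.792).

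Umps codes for UMP synthase, which completes UMP and can also attach ribose phosphate directly to 5-FU (ENSMUSG00000022814, chromosome 16, 33954782 to 33967038, minus strand). Normalized counts were 2637, 3469 and 2097 in untreated WT and 3799.9, 3249 and 4517 in untreated KO. After 5-FU, WT read 2211, 2715, 1370.4 and 2287.5 and KO read 4241, 4127 and 4468. These KO libraries lay above every WT library of either treatment but within the range of untreated KO. Means after 5-FU were 2146 ± 563 (SD, n = 4) and 4279 ± 174 (SD, n = 3), a 1.99-fold difference (log2 0.91 (SE 0.19), limma adjusted p = 0.0055). The antisense gene Gm15829 covers 213 exon bases of Umps and was not analysed here.

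Nme1 codes for a nucleoside diphosphate kinase, which adds the last phosphate to make the triphosphates (ENSMUSG00000037601, chromosome 11, 93956979 to 93968521, minus strand). It had the lowest coefficient of variation of the 10 genes in untreated WT, untreated KO and 5-FU WT, with 4348, 4241 and 3525 in untreated WT and 4529, 5207 and 4407 in untreated KO. After 5-FU it read 3808, 2896, 3125 and 3264 in WT and 8414, 7839 and 8420.1 in KO. Of the 4 groups only untreated WT and 5-FU WT overlapped, through A2, and the highest library outside 5-FU KO was 5207 in untreated KO D5. The 2.51-fold difference after 5-FU (log2 1.24 (SE 0.13)) had the smallest limma adjusted p of the 10 genes, 2.87e-05. Reads of Nme1 may be shared with Gm20390, a read-through gene on the same strand that spans Nme1 and Nme2 and has 418 exon bases in common with Nme1. Gm20390 itself read 4146 to 6097 in WT and 10888 to 12546 in KO after 5-FU (log2 1.18, adjusted p = 4.62e-05), so how the counts split between these genes is uncertain.

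**Figure D2:**
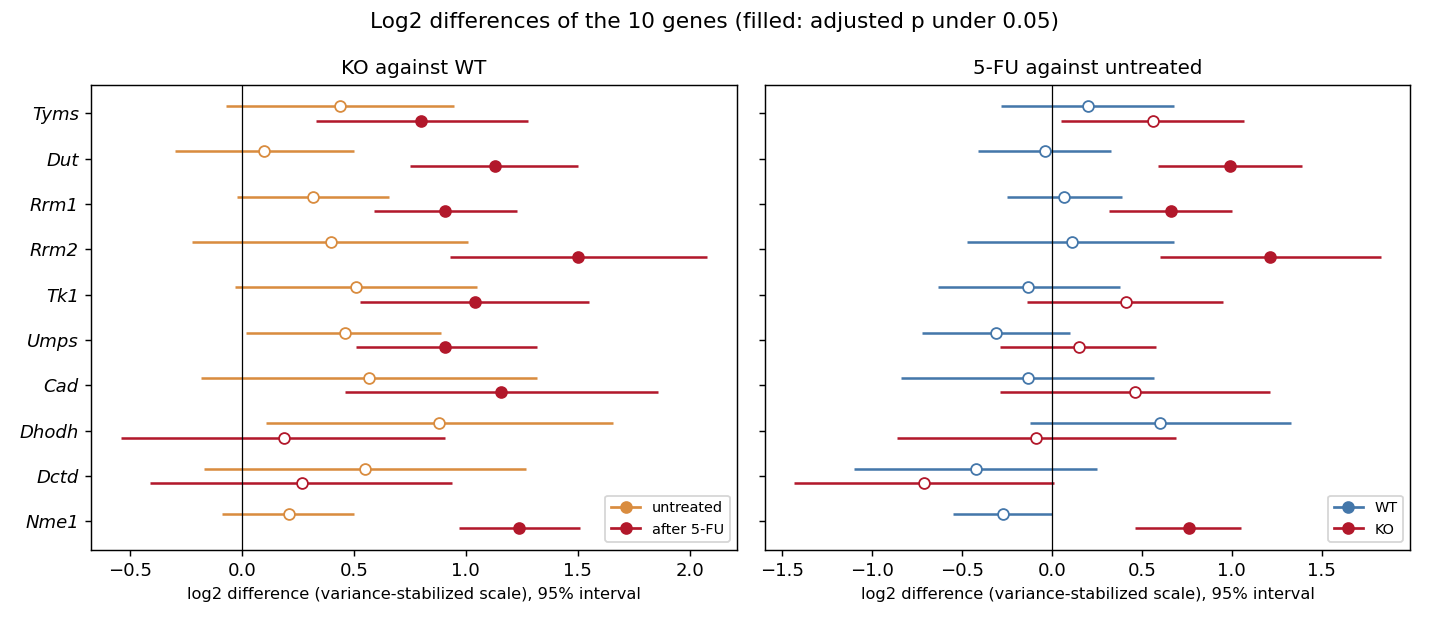
Log2 differences (horizontal axis, variance-stabilized scale) of the 10 genes with 95% intervals, KO against WT on the left and 5-FU against untreated on the right; filled points have an adjusted p under 0.05. On the left 8 filled points after 5-FU lie right of 0 and none of the untreated points is filled, and on the right the filled points are Dut, Rrm1, Rrm2 and Nme1 in KO.

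Between untreated KO and untreated WT HSCs none of the 10 genes was called by limma or by limma-voom. All 10 log2 differences were above 0, from 0.10 for Dut to 0.88 for Dhodh with a median of 0.45, where 50.4% of all genes lay above 0. Limma adjusted p-values ran from 0.434 to 0.915. At an unadjusted p under 0.05 there were 2, Umps (log2 0.46, adjusted p = 0.479 in limma) and Dhodh (0.434). Of all 12846 genes tested, 690 were higher and 601 lower at that unadjusted level. The share of all genes called was 0.0311%, 4 genes, so few genes of any kind passed in untreated cells. Groups did not overlap for Cad, at 408 to 790.4 in WT and 862 to 1211 in KO, and for Nme1, at 3525 to 4348 and 4407 to 5207, and 5.88% of all genes were arranged that way. The members share libraries, so 10 positive differences are not 10 separate observations.

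Between 5-FU and untreated WT HSCs none of the 10 genes was called by limma or by limma-voom, in a comparison that called 6.68% of all genes. Log2 differences ran from -0.42 for Dctd to 0.60 for Dhodh, with a median of -0.08. At an unadjusted p under 0.05 there was 1, Nme1, whose mean was 4038 ± 448 (SD, n = 3) untreated and 3273 ± 388 (SD, n = 4) after 5-FU. Its log2 difference was -0.27, with an adjusted p of 0.222 in limma. Of all 12846 genes tested, 1481 were higher and 1392 lower at that unadjusted level. For Tyms the interval was -0.28 to 0.68 and for Dut -0.41 to 0.33. Dctd was called lower (log2 -0.95, adjusted p = 0.0255 in limma) when untreated WT D1, its lowest untreated library, was left out. The untreated WT libraries and 5-FU WT D4 were acquired in 2015, and 5-FU WT A2, A3 and A4 in 2016. Treatment and acquisition are therefore only partly separable in WT.

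In KO HSCs 4 of the 10 genes were higher after 5-FU than untreated, where 2.78% of all genes were called higher. Dut rose 2.05-fold (log2 0.99 (SE 0.19), limma adjusted p = 0.00494), Nme1 1.75-fold (0.76 (SE 0.14), 0.00379), Rrm2 2.51-fold (1.21 (SE 0.29), 0.0196) and Rrm1 1.62-fold (0.66 (SE 0.16), 0.022). Tyms was not called (log2 0.56, adjusted p = 0.197 in limma), except when only the KO groups were fitted (0.0467). All 3 of its treated libraries lay above all 3 untreated ones. Of the 10 genes 6 had such an arrangement, against 14.2% of all genes, and Dctd had the opposite one (log2 -0.71, adjusted p = 0.258 in limma), against 14.6%. All untreated KO libraries were acquired in 2015 and all treated ones in 2016, so treatment and acquisition cannot be told apart in KO. With acquisition as a term, which only 5-FU WT D4 of 2015 makes possible, none of the 4 was called (adjusted p = 0.495 for Dut, 0.317 for Nme1, 0.704 for Rrm2 and 0.7 for Rrm1), and the log2 differences were 0.84, 0.76, 0.88 and 0.50 in that order, lower than without the term for Dut, Rrm2 and Rrm1. Quantile normalization ended the call of Rrm1 (0.0726). Leaving out 1 library ended the call of Rrm1 (D5 0.0779, D6 0.0747, A6 0.0742, A8 0.0935) and of Rrm2 (D6 0.0973, A5 0.0514, A6 0.0594, A8 0.0886).

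The response to 5-FU differed between genotypes for 2 of the 10 genes, Dut and Nme1. Limma's interaction term, the log2 response in KO minus that in WT, was 1.03 (SE 0.26) for Dut (adjusted p = 0.042) and 1.03 (SE 0.19) for Nme1 (0.00945), and 1.04% of all genes had a positive interaction call. The Nme1 value held under all 25 alternatives tried, with the reservation about Gm20390, whose own interaction was 0.93 (0.0189). The Dut call was lost in 17 of them, where its log2 value was 0.91 to 1.13, with adjusted p-values up to 0.101. Each single library left out ended it except untreated WT D3 and 5-FU WT A2. Rrm2 (log2 1.11, adjusted p = 0.156 in limma) and Rrm1 (0.59, 0.172) did not pass, and Dhodh (-0.69) and Dctd (-0.28) had values below 0. With library weights Rrm2 was called (1.22, limma adjusted p = 0.0419). These comparisons share the untreated and the WT libraries, so their values are not independent of those above.

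Across the 4 groups the mean was highest in 5-FU KO for 8 of the 10 genes and in untreated KO for Dhodh and Dctd. In 5 genes (Tyms, Dut, Rrm1, Rrm2 and Nme1) each of the 3 libraries of 5-FU KO lay above each of the other 10 libraries, as they did in 4.76% of all genes tested. Below 5-FU KO, untreated KO came next in all 8, and untreated WT and 5-FU WT overlapped in all 10. The untreated KO libraries lay clear of both WT groups for Nme1, of untreated WT only for Cad and of 5-FU WT only for Umps. In the rest of the 8 they overlapped both WT groups. The spread inside a group also differed. The coefficient of variation in 5-FU KO was 3.72% for Tyms, 4.06% for Umps and Nme1 and 4.48% for Cad, and in 5-FU WT it was 38.1%, 26.2%, 11.8% and 110%. In the same order it was 10.6% and 14.5% for Rrm1, 18% and 22.2% for Rrm2, and 13.1% and 24.3% for Tk1. For Dut it was 12.2% and 30.3%, for Dhodh 26.7% and 61.7%, and for Dctd 6.54% and 17.8%. Library A2 was the highest of the 4 libraries of 5-FU WT for 7 of the 10 genes. Without A2 each of the 8 calls after 5-FU stood, with the Tyms difference at 0.97 (limma adjusted p = 0.00835) and that of Dut at 1.31 (5.5e-05).

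The genes whose values followed Tyms most closely over the 13 libraries, by Pearson r of the deposited values among 12845 genes, were Pmf1 (0.96), Aars (0.92), Ahcy (0.91), Spc24 (0.91) and Gm9761 (0.90). Pmf1 and Spc24 code for kinetochore proteins, Aars for the alanyl-tRNA synthetase and Ahcy for the enzyme that clears S-adenosylhomocysteine. Of the members, Dut ranked 12 (r = 0.88), Tk1 54 (0.83), Cad 83 (0.81) and Nme1 100 (0.80), and Umps ranked 250 (0.73). Rrm2 ranked 553 (0.66), Rrm1 695 (0.62), Dhodh 846 (0.59) and Dctd 5555 (0.05). All these values share the difference between groups and the libraries themselves. With the group means removed, r with Tyms was 0.80 for Dut and 0.65 for Cad and Nme1, but -0.45 for Rrm1 and -0.08 for Rrm2.

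Per kilobase of merged exon, Dut had the highest level of the 10 genes in every group, with a mean of 2202 normalized counts per kb in untreated WT and 4866 in 5-FU KO. Nme1 was next, at 1208 and 2461. Cad (69.5 in untreated WT) and Dhodh (40.2) were lowest. The order in between depends on the length used: Umps ranked 3 of 10 in untreated WT by merged exons and 8 by mean transcript length, and Rrm1 7 and 4. Rrm2 moved from rank 6 in untreated WT to rank 3 in 5-FU KO by merged exons, and from 6 to 5 by mean transcript length.

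Among 42 other genes of pyrimidine metabolism, 39 were in the table and tested. After 5-FU 8 of the 39 were higher and 2 lower in KO than in WT, where 5.36% and 5.5% of all genes were. The median log2 difference of the 39 was 0.10, against -0.02 over all genes. Shmt1, which loads the folate that thymidylate synthase consumes, had the largest difference, at 471, 168, 141 and 228 in WT and 1044, 1277 and 1384 in KO (4.9-fold, log2 1.51 (SE 0.23), limma adjusted p = 0.000479). Every KO library exceeded every WT library. Dtymk, the kinase of thymidylate (log2 0.59, 0.0176), Ctps, a CTP synthase (1.16, 0.0128), and Nme2, the neighbour of Nme1 (0.78, 0.0118), were also called higher by limma. Nme2 shares 573 exon bases with Gm20390 on the same strand, so its counts are uncertain as those of Nme1 are. Uprt, named after the uracil salvage enzyme of microbes, was called too (adjusted p = 0.00407 in limma) at 44.3, 101 and 93.7 in KO, but its WT libraries held only 0 to 8.56, near 3 reads, and no fold is given. Shmt1 and Uprt passed under every other setting tried, whereas Ctps and Nme2 were lost in 2 of 26 and Dtymk in 3. Of the 39 genes only 2 were called higher without A6 or without A8, and 5 without A5 or without D4 of 5-FU WT.

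The 2 called lower in KO were Tk2, the mitochondrial thymidine kinase, and Nt5c3, a pyrimidine nucleotidase. As a share of the 39 genes this is near the 5.5% of all genes called lower. Tk2 read 284, 1434, 726 and 1132 in WT and 145, 392 and 105 in KO (log2 -1.17 (SE 0.36), limma adjusted p = 0.0462), and A2 overlapped with KO. Nt5c3 read 5848, 7927, 7839.9 and 5942 in WT and 4082, 4698 and 4855 in KO (-0.55 (SE 0.17), adjusted p = 0.0467 in limma), with no overlap. Neither was stable: of 26 other settings, 12 ended the call of Tk2 (adjusted p up to 0.179) and 16 that of Nt5c3 (up to 0.18), among them leaving out 5-FU WT D4. Not called were Ung, which cuts uracil out of DNA (adjusted p = 0.349 in limma), Upp1 (0.381) and Tymp (0.976), phosphorylases that can activate 5-FU, Uck2, the uridine kinase (0.122), and Samhd1, which degrades deoxynucleotides (0.928). Dpyd, which breaks down 5-FU, was not analysed here. In untreated cells none of the 39 was called by limma or limma-voom, with 2 higher and 2 lower at an unadjusted p under 0.05. Of all 12846 genes, 690 were higher and 601 lower at that level in untreated cells. After 5-FU against untreated, WT had 1 gene called higher (Nt5c3, log2 0.59, 0.0462) and 3 lower (Nme4, -0.76, 0.023; Shmt1, -0.90, 0.0266; Slc29a3, -1.03, 0.0276). KO had 1 higher (Uprt) and 1 lower (Cmpk2, -0.80, 0.0396). Of the 12846 genes tested, 478 were called higher and 380 lower in WT, and 357 higher and 404 lower in KO. The interaction was called for Shmt1 alone among the 39 (1.29, SE 0.34, adjusted p = 0.0495 in limma), and 18 of 25 other settings ended it. Calls of the treatment comparisons were lost under 6 (Uprt), 7 (Nme4, Slc29a3), 8 (Shmt1), 12 (Cmpk2) and 19 (Nt5c3) other settings. Acquisition as a term was among these settings for each gene.

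**Figure D3:**
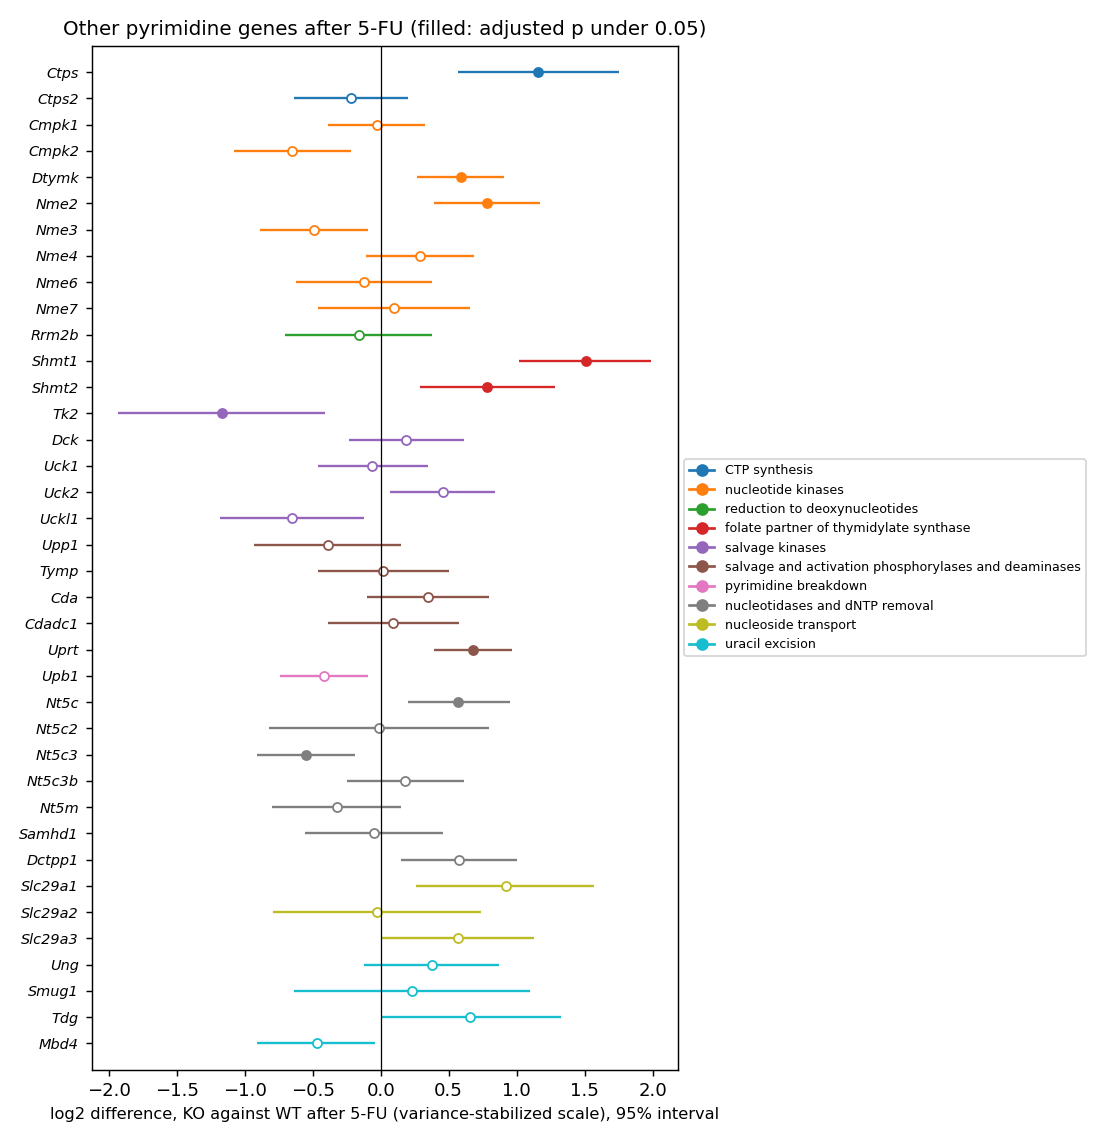
Log2 difference (horizontal axis, variance-stabilized scale) of KO against WT after 5-FU for 38 of the other pyrimidine genes with 95% intervals, coloured by role; filled points have an adjusted p under 0.05. Filled points right of 0 include the folate enzymes Shmt1 and Shmt2, and those left of 0 are Tk2 and Nt5c3.

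Genes of DNA replication were also higher in KO after 5-FU. Of 25 replication genes, 14 were higher in KO than in WT after 5-FU and none was lower, against 5.36% and 5.5% of all genes. The median log2 difference of the 25 was 0.75. The 6 with the smallest p were Hells, a chromatin remodeller (log2 1.53, limma adjusted p = 4.81e-05), the cyclins Ccne2 (1.51, 0.000279) and Ccne1 (1.57, 0.00154), the helicase subunit Mcm2 (0.91, 0.00566), the flap nuclease Fen1 (0.82, 0.0067) and the clamp loader subunit Rfc4 (1.04, 0.00728). These 6 calls held under all 26 other settings, except that Fen1 was lost in 1. The count of 14 fell to 6 without A6, 7 without A5, and 8 without A8, without 5-FU WT A4 or without 5-FU WT D4, and to 9 without A3. None of the 25 was called by limma or limma-voom between untreated KO and WT (median 0.39, 7 higher at an unadjusted p under 0.05) or in WT after 5-FU (median -0.08, 1 lower). Of all 12846 genes, 690 were higher and 601 lower at that level between untreated KO and WT. In WT after 5-FU 1481 were higher and 1392 lower. In KO after 5-FU 2 were called higher (median 0.28), Hells and Ccne2, where 2.78% of all genes were. Neither call held with acquisition as a term (limma adjusted p = 0.798 and 0.761). The interaction was called for Hells alone (1.01, adjusted p = 0.0468 in limma), a call lost in 19 of 25 other settings. Over all genes 1.04% had a positive interaction call. Of 20 mitosis genes, only Cdk1 and Birc5 were called higher in KO than in WT after 5-FU (median 0.58), and Birc5 was lost in 8 of 26 other settings. The mitosis count was 7 without untreated WT D1 or D3, 4 without D2, and 1 without A3 or D4 of 5-FU WT or without A6 or A8. WT had 13 of the 20 higher after 5-FU than untreated (median 1.07), where 3.72% of all genes were called higher and none of the 10 pyrimidine genes was. KO had 7 higher after 5-FU (median 0.88), where 2.78% of all genes were. Acquisition cannot be told apart from treatment in KO, and in WT it is only partly separable. With acquisition as a term, the WT calls of Cdc20 and Bub1 held and that of Birc5 was lost (limma adjusted p = 0.221). In KO the calls of Cdk1 (0.487), Birc5 (0.305) and Cdc20 (0.485) were lost. The counts of 13 and 7 are not given with that term. For the interaction limma called none of the 20 and limma-voom 1 lower (median -0.38, 1 higher and 5 lower at an unadjusted p under 0.05). Of all 12846 genes, 1001 were higher and 1138 lower at that level, and limma-voom called 171 lower. Between untreated KO and WT all 20 differences were above 0 (median 0.85), where 50.4% of all genes were. In 9 of the 20 the groups did not overlap, with KO higher, against 5.88% of all genes. Cdc20, the activator of the anaphase-promoting complex (adjusted p = 0.0121 in limma), and Bub1, a spindle checkpoint kinase (0.0385), were called higher there, 2 of the 4 genes called in all. Of 26 other settings 3 ended the call of Cdc20 and 18 that of Bub1, limma-voom and leaving out untreated KO D6 among them for both.

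The summed level of the 10 genes was 22108 to 29252 in untreated WT, 31523 to 35286 in untreated KO, 19143 to 29000.1 in 5-FU WT and 47045 to 55071 in 5-FU KO. The replication sum was 48144 to 68992, 68432 to 79285, 40983 to 63611 and 78768 to 87773 in the same order. The mitosis sum was 11169 to 29176, 34101 to 42722, 46494 to 55709 and 72999 to 84672. The libraries of 5-FU WT overlapped with untreated WT in the sums of the 10 genes and of replication and lay above it in the mitosis sum. Those of 5-FU KO lay above all others in the sums of the 10 genes and of mitosis and overlapped with untreated KO in the replication sum. The part of replication and mitosis in the differences of the 10 genes was not tested.

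**Figure D4:**
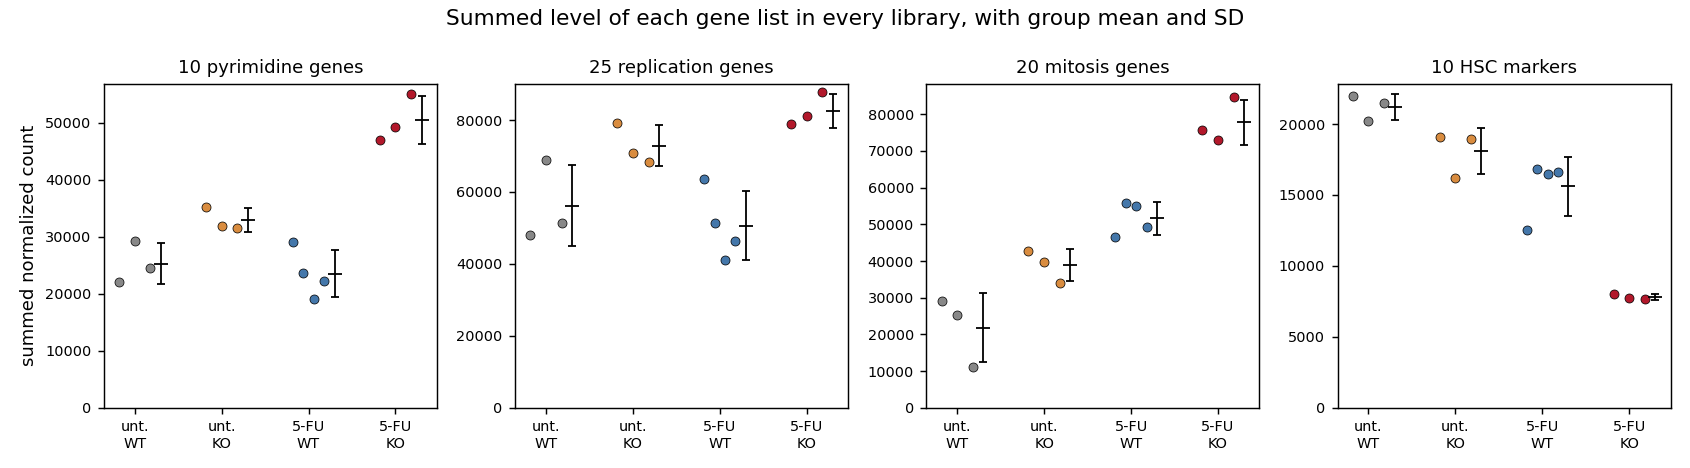
Summed normalized count (vertical axis, linear, from 0) of the 10 pyrimidine genes, 25 replication genes, 20 mitosis genes and 10 HSC markers in each of the 13 libraries, with group mean and SD. The 5-FU KO libraries are highest in the first panel (47045 to 55071) and lowest in the HSC panel (7649 to 8016).

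Markers of cell types also moved between the groups after 5-FU. Beside the counts below, 5.5% of all genes tested were called lower and 5.36% higher in KO than in WT after 5-FU. All 10 HSC markers were read, and their sum was 20205 to 21969 in untreated WT, 16198 to 19100.1 in untreated KO, 12513 to 16822 in 5-FU WT and 7649 to 8016 in 5-FU KO, where 4 of the 10 were lower than in WT and 1 was higher. Megakaryocyte and platelet markers, 6 of 7 analysed, summed to 28448 to 50439 in 5-FU WT and to 3266 to 6712 in the other groups, and 5 of the 6 were lower in KO than in WT after 5-FU. Pf4, a platelet chemokine, alone read 18815 to 36813 in 5-FU WT and 1725 to 4680.0 in 5-FU KO. Erythroid markers summed to 3421 to 5209 in 5-FU WT and at most 1567 elsewhere, with 3 of 6 tested lower in KO after 5-FU. Car1 was at 0 in both KO groups and in 2 of 3 untreated WT libraries. Neutrophil markers summed to 387 to 1232 in 5-FU WT and 36.3 to 42.9 in 5-FU KO, with 2 of 6 lower. Mpo was at 0 in 5-FU KO but also in A3 and D4 of 5-FU WT, and Elane was at 0 in untreated WT. Sums in 5-FU WT and 5-FU KO were 1142 to 1944 and 540.2 to 787 for B cell markers (2 of 5 analysed), 5770 to 6835 and 1697 to 3810 for T and NK cell markers (2 of 5, Klrb1c at 0 in 5-FU KO), and 1875 to 2257 and 250 to 666.5 for mast cell and basophil markers (2 of 4), with 1 of 2 lower in each list. The 4 macrophage markers analysed overlapped, at 49.15 to 600.1 and 275.9 to 636.1. The part of these cell types in the differences of the 10 genes was not tested.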

How the data were processed

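The members and gene lists were chosen with earlier results of these data known. The authors deposited 1 table of log2-scale variance-stabilized values made with DESeq2, per the submitters' processing notes, which also name Trimmomatic, Bowtie 1.1.1 and mm10. The sources used here do not give the counter, its annotation or its strand setting. Inverting the transformation (7.6484 at exactly 0) gave reads that were whole within 0.1 for 100% of genes in every library; untreated WT D1, labelled with 2 flow cells, needed an added constant of 2 in place of 1. Normalized counts are these reads over the size factor. Reported log2 differences come from the deposited values, which understate changes of low genes. Limma 3.58.1 in R 4.3.3 fitted 1 mean per group over all 13 libraries with a mean-variance trend (residual df 9), with Benjamini-Hochberg adjustment inside each of 5 comparisons. Testing covered the 12846 genes that reached a normalized count of 10 in 3 or more libraries. The 10 genes are all named; of other lists, called genes with the smallest p were named, at most 6 a direction, with some enzymes named for their role. Some listed genes entered the counts and sums but are not reported by name here. The mitosis genes were named after their values were seen. Intervals are at 95%. Symbols matched 13054 identifiers by GENCODE M21. The procedure was tested on simulated data.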

Additional observations from a re-analysis of the deposited data

Results flagged for a closer look

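Cad read 1647 in 5-FU WT A2, while the other 3 libraries of that group read 269 to 296. The gap took up 0.981 of the range of the group. Gaps were flagged above a cutoff that chance alone passes in about 1 group of 20. That rate belongs to the cutoff and is not the chance of a gap this large. All 10 genes were screened at both ends, in 5-FU WT only. The same library was the highest of its group for 7 of the 10 genes.

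The response to 5-FU differed between genotypes by limma's interaction term for Dut (log2 1.03), Nme1 (1.03) and, among the other pyrimidine genes, Shmt1 (1.29). Of 25 other settings, 17 ended the call of Dut and 18 that of Shmt1. Acquisition as a term was among them for both (limma adjusted p = 0.0862 and 0.0962). Shmt1 read 524, 811 and 758 in untreated WT and 1054, 589 and 983 in untreated KO, so that after 5-FU it was lower than untreated in each of the 4 WT libraries and higher or within the untreated range in KO.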

How the results depend on the processing

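Of 50 differences of the 10 genes (10 genes in 5 comparisons), 30 kept their sign and their side of the threshold under every alternative. There were 26 alternatives, or 25 for the interaction, and 13 of them left out 1 library. The planned edgeR and DESeq2 fits on the recovered reads were not run; limma-voom on the same reads stands in. No paired analysis was possible because the groups compared share fewer than 2 replicate labels. The members called numbered 8 for KO against WT after 5-FU (5 to 8 with 1 library left out). They numbered 4 for 5-FU in KO (2 to 4), and 0 with acquisition as a term. Counts were 0 for 5-FU in WT (0 to 1) and 0 untreated (0 to 0). For the interaction 2 were called (1 to 2). Only 1 was called there with pseudocounts of 1, 0.5 or 5, quantile normalization, A3 and D4 averaged, or acquisition as a term. With all libraries kept, Tyms was gained for 5-FU in KO with only the groups compared. Rrm2 was gained for the interaction with library weights. Over all genes, the untreated comparison called 4 (1 to 25 with 1 library left out), and 9 with a pseudocount of 1, 11 with 0.5, 2 with a minimum of 50, 8 with TMM, 0 with only its groups, 2 with A3 and D4 averaged, 2 with acquisition and 0 with limma-voom. KO against WT after 5-FU called 1395 (694 to 1606), and 913 averaged, 881 with acquisition and 5611 with library weights. For 5-FU in WT the count was 858 (464 to 990), and 415 with only its groups, 510 averaged, 219 with acquisition and 1732 with weights. For 5-FU in KO it was 761 (356 to 979), and 7 with acquisition, 1466 with weights and 448 with limma-voom. The interaction called 365 (140 to 476), and 237 averaged, 199 with acquisition and 864 with weights. After 5-FU, KO against WT called 8 other pyrimidine genes higher (2 to 9), and 5 with acquisition and 14 with weights, and 2 lower (0 to 3), 1 with quantile normalization, 0 averaged, with acquisition or with limma-voom, and 8 with weights. Replication genes called higher were 14 (6 to 16), and 9 averaged, 8 with acquisition and 22 with weights; mitosis genes were 2 (1 to 7), and 4 with a minimum of 50, 1 with quantile normalization, averaged or with acquisition, 9 with only the groups compared and 13 with weights. Higher calls made up 49.4% after 5-FU (KO against WT), 46.9% for 5-FU in KO and 36.7% for the interaction, but 62.6%, 60.3% and 49.6% with limma-voom. Signs turned only where no call was made. For 5-FU in WT this was Rrm1 with acquisition (-0.05), Rrm2 with acquisition (-0.14) or weights (-0.05), and Cad averaged (0.01); for 5-FU in KO, Cad with acquisition (-0.06). With 1 library left out the log2 difference for 5-FU in WT ran from -0.22 to 0.07 for Dut, -0.07 to 0.16 for Rrm1, -0.16 to 0.52 for Rrm2, -0.32 to 0.11 for Tk1 and -0.56 to 0.04 for Cad. For Dhodh it ran from -0.08 to 0.40 for KO against WT after 5-FU and from -0.32 to 0.06 for 5-FU in KO, and for the interaction of Dctd from -0.63 to 0.24. The causes were not tested, and 3 or 4 libraries a group limit what could be called.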
